A study of Mus musculus with 8 samples.

Results

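The genes examined were 10 basic helix-loop-helix (bHLH) transcription factors of mesoderm and blood, namely Twist1, Hand1, Hand2, Tcf21, Mesp1, Mesp2, Myod1, Myf5, Myf6 and Tal1. They were chosen by name, with earlier results of these data known. Each was followed through the regions of the histone mark H3K27me3 that overlapped its GRCm38 gene body or the 5 kb on either side. Regions were found for 8 of the 10 genes. Each of these 8 genes had 1 region and no region served a pair of members, so the description rests on 8 of the 13585 regions. Myf5 and Myf6 had no region.

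H3K27me3 was measured by chromatin immunoprecipitation and sequencing (ChIP-seq) in primary neural stem cells (NSCs), which were grown from the cortex of female C57BL/6J embryos at E14.5 and kept for fewer than 10 passages. WT cells were Smchd1GFP+/+ and mutant cells Smchd1GFPMommeD43/MommeD43, so cells of both genotypes carried a GFP tag on endogenous SMCHD1, and the mutant cells were homozygous for the missense variant MommeD43. The 8 samples formed 4 groups: 3 H3K27me3 libraries per genotype, each from its own cell line, and, for each genotype, 1 library of whole cell extract (WCE). The comparison asked whether the mark was placed differently at these genes in MommeD43 NSCs, and only the authors' mean over the libraries of a genotype was available, so the spread between replicates is unknown and no p-value is given.

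H3K27me3 is laid down by Polycomb repressive complex 2 and marks genes that are held silent. In stem cells of the nervous system it commonly covers the regulators of other lineages, and broad domains over CpG-rich starts of developmental transcription factors are a familiar form of it. bHLH factors bind E-box sequences as dimers, usually with a widely expressed E protein such as Tcf3, and Id proteins hold the E proteins in dimers that do not bind DNA. SMCHD1 is a chromatin protein with roles in silencing of the inactive X chromosome, of Hox genes and of clustered protocadherins.

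Values are given on 3 scales. The level of a region is the log2 of its read count after the authors' scaling to library size, the density is the unlogged count divided by the region's length in kb, and the difference is the MommeD43 level minus the WT level, in log2 units. Each value is a mean of log2 counts over 3 libraries, so the product of the 3 counts, rather than the value itself, comes out whole. From the low products a read was found to be worth, as a geometric mean over libraries, 3.27 normalized counts in the WT column and 2.63 in the other, and this gave the geometric mean number of reads per library behind each value. The error given after a difference is the smallest that counting allows and leaves out all variation between cell lines. In a bulk sample, fewer cells carrying the mark and less of the mark per cell cannot be told apart. The study called ChIP-seq poorly suited to gauging relative amounts of a histone mark. By immunofluorescence it reported a modest decrease of H3K27me3 in female MommeD43 NSCs, on the inactive X chromosome and, without showing the data, over the whole nucleus. A higher normalized count therefore cannot be read as more of the mark in a mutant cell.

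Sequence upstream of the start is shown for 5 members picked for their regions, since CpG-rich starts are where broad Polycomb domains usually lie. Each line holds the 250 bases before the RefSeq start on GRCm38.p6, 5′ to 3′ on the gene's strand, with every CG dinucleotide in capitals. CG reads the same on both strands. Hand2 (plus strand, chr8:57320733-57320982) had the densest region, Twist1 (plus, chr12:33957421-33957670) and Tcf21 (minus, chr10:22820144-22820393) were the members that were lower in MommeD43, Mesp2 (plus, chr7:79810477-79810726) had the region of lowest density and Myf5 (minus, chr10:107486135-107486384) had no region.
Hand2: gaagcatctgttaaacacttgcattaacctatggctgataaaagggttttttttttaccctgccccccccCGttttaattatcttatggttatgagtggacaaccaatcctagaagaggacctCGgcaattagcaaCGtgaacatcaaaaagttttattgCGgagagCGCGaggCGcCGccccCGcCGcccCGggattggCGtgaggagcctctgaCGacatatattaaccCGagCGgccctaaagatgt
Twist1: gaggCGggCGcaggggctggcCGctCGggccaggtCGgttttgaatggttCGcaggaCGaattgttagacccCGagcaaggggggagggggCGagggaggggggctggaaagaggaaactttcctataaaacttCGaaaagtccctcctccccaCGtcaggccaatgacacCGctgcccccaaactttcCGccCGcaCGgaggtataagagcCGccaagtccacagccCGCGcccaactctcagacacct
Tcf21: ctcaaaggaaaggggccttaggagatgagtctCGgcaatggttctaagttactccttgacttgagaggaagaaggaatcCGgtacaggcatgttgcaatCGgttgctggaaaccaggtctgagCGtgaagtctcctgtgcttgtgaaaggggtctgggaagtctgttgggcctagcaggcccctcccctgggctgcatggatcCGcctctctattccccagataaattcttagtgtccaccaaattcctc
Mesp2: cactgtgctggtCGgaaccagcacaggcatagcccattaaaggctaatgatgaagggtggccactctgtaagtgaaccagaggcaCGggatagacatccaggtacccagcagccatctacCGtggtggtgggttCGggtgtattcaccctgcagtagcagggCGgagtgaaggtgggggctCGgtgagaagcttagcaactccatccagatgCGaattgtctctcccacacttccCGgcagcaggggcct
Myf5: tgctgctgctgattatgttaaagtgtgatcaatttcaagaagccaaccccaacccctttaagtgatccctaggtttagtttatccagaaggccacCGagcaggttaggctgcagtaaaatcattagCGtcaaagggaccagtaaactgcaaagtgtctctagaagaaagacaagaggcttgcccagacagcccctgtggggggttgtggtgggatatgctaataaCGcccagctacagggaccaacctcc

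Of these windows, Twist1 held 18 CG dinucleotides and Hand2 15, and 21.7% and 27.3% of the 32851 RefSeq promoters held as many in the same length. Mesp2 held 8, which 43.0% of promoters reached, Tcf21 held 5 (55.6%) and Myf5 held 3 (71.0%). The median promoter held 6. Of the members not printed, Tal1 held 6 (50.4%) and Mesp1 held 2 (81.2%), and RefSeq placed the start of Mesp1 198 bp and that of Tcf21 31 bp from the GENCODE start used elsewhere. The 250-base windows therefore ranged from CG-rich, at Twist1 and Hand2, to CG-poor, at Mesp1 and Myf5. The sequences of Hand1, Myod1 and Myf6 were not used here.

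Over the 2 kb centred on each GENCODE start, the ratio of observed to expected CpG was 0.82 at Hand2 and 0.81 at Twist1, against a median of 0.48 over all protein-coding genes. It was 0.72 at Tal1, 0.56 at Mesp1, 0.54 at Myod1, 0.52 at Tcf21, 0.48 at Mesp2 and 0.42 at Hand1. The lowest values belonged to the members without a region, 0.38 at Myf5 and 0.29 at Myf6. Hand1 and Mesp2 nevertheless fell in the same class of starts as those 2 genes, 0.25 to 0.5, in which 37.2% of 4965 genes had their start in a region. That share was 16.6% of 6469 genes below 0.25 and 37.7% of 7459 genes at 0.5 to 0.75. It was lower again, 26.7% of 2862 genes, at 0.75 or above, the class of Hand2 and Twist1.

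The called region spanned the start and the whole body of all 8 members that had one. Peaks had been widened by 2.5 kb on each side and joined, so a region can include stretches without a called peak. Having a region was more frequent among the members (8 of 10) than among all protein-coding genes, of which 43.3% had a region within the body and 5 kb of flank, and 29.9% had their start inside one. The members were chosen with earlier results of these data known, so this is description only. Regions were also found for 13 of 17 proneural bHLH genes and 9 of 14 other bHLH genes listed for mesoderm and blood. All 8 regions had been joined from several peaks, as were 8582 of all regions. Widening the flank to 10 kb or dropping it left 8 members with a region.

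Hand2, which directs limb, heart and branchial arch development, lay at chr8:57320983-57324633 on the plus strand. Its region, chr8:57288951-57393100, was the longest of the 8 at 104.15 kb and ran from 32.0 kb before the start to 72.1 kb after it. The antisense gene Hand2os1 and 3 further non-coding or pseudogene entries lay at least partly in that region. Hand1, its close relative in heart and extraembryonic mesoderm (chr11:57828705-57832818, minus strand), had a region of 88.1 kb, chr11:57803451-57891550. That region also took in 6767 of the 8581 bp of Sap30l, but not the start of Sap30l.

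Twist1, a regulator of mesoderm and of epithelial to mesenchymal transition (chr12:33957671-33959829, plus strand), lay in a region of 87.5 kb, chr12:33908601-33996100. The same region held all of Ferd3l, another bHLH gene, so the value given for Twist1 belongs to both. Tcf21, a factor of epicardium, kidney and gonad mesenchyme (chr10:22817281-22820174, minus strand), had a region of 60.65 kb, chr10:22801251-22861900. Tal1, the master regulator of haematopoietic specification (chr4:115056426-115071755, plus strand), had a region of 69.95 kb, chr4:115034451-115104400. The Tal1 region also held all of Pdzk1ip1 and the last 8746 of the 43038 bp of Stil, so these values cannot be divided between Tal1 and its neighbours.

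Myod1, the myogenic determination factor (chr7:46376474-46379099, plus strand), had a region of 47.6 kb, chr7:46335951-46383550, of which 40.5 kb lay before the start and 7.08 kb after it. Mesp1 and Mesp2, which act in cardiac progenitors and in somite segmentation, point away from each other on chromosome 7 with starts 16939 bp apart. Mesp1 (chr7:79792241-79793788, minus strand) had a region of 37.55 kb, chr7:79764351-79801900, which ran into Wdr93. Mesp2 (chr7:79810727-79813439, plus strand) had the shortest region, 18.95 kb at chr7:79806801-79825750, with 3948 bp of Anpep at its far end. A gap of 4900 bp without a region separated the Mesp1 and Mesp2 regions.

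**Figure D1:**
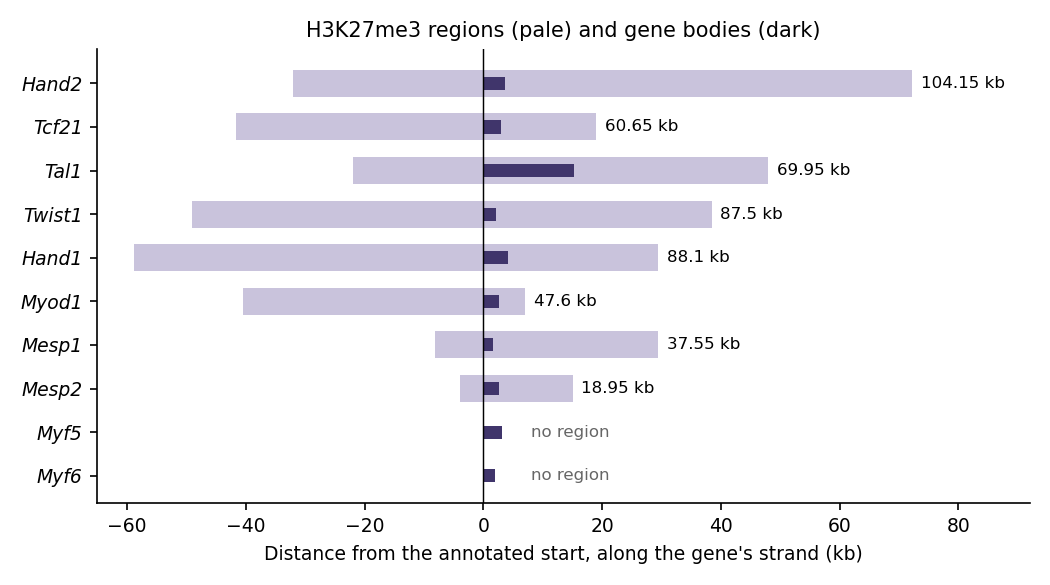
Extent of the H3K27me3 region (pale bars, length in kb at the right) around the annotated start of each member, in kb along the gene's own strand, with the gene body as a dark bar. The regions of Hand2, Twist1, Hand1, Tal1 and Tcf21 spanned 60.65 to 104.15 kb and those of Myod1, Mesp1 and Mesp2 18.95 to 47.6 kb, and Myf5 and Myf6 had none.

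Myf5 and Myf6 are the myogenic factors that lie side by side on chromosome 10, at chr10:107482908-107486134 and chr10:107492853-107494737, both on the minus strand and 6718 bp apart. No region lay within 100 kb of either gene. The nearest, chr10:107267001-107275600 in Lin7a, was 207307 bp from Myf5 and 217252 bp from Myf6, and the nearest on the other side, in Pawr, was 832763 bp from Myf6. These 2 regions bounded 1051.9 kb without a region, a stretch that 3.22% of the gaps between neighbouring regions equalled or exceeded, the median gap being 30.1 kb. Both were low, with WT levels of 7.75 and 7.62 against a median of 8.35 over all regions. The table holds called regions only, so it gives no level for Myf5 and Myf6, and a signal too weak or too narrow to be called would not appear in it. The 3 myogenic members thus had 1 region between them, that of Myod1.

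In WT cells the 8 regions fell into a dense and a sparse set. Hand2 was densest at 392 normalized counts per kb, followed by Tcf21 at 323, Tal1 at 319, Twist1 at 290.1 and Hand1 at 210.4. Myod1 followed at 74.3, Mesp1 at 60.5 and Mesp2 at 44.1. All regions of the table had a median of 33.7 and an interquartile range of 24.5 to 45.0, so every member but Mesp2 lay above the upper quartile. The 5 densest members ranked 9, 24, 25, 43 and 122 among the 13585 regions. The step between Hand1 and Myod1 was 2.83-fold, wider than any other step in the order. Tcf21 and Tal1 could not be ordered in WT, because their counting intervals, 318 to 327 and 315 to 324, overlapped, and no other neighbours in the order had overlapping intervals.

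In MommeD43 cells Hand2 was again densest, at 439 normalized counts per kb. Tal1 followed at 399, Tcf21 at 308, Hand1 at 277 and Twist1 at 264, then Myod1 at 98.8, Mesp1 at 78.4 and Mesp2 at 47.8. No counting intervals of neighbours in this order overlapped. Hand1 stood ahead of Twist1, the reverse of WT, and Tal1 stood ahead of Tcf21, a pair without an order in WT. The difference of Hand1 exceeded that of Twist1 by 0.53 ± 0.019, which turned to -0.21 with the GC trend removed. The same 5 genes were above the 99th percentile of all regions in both genotypes, and Spearman's rho between the WT and MommeD43 densities was 0.952 over the 8 regions, which share their libraries. Over the members, the median density was 250.3 in WT and 270.2 in MommeD43, beside 33.7 and 34.7 over all regions. Longer regions tended to be denser, with rho 0.762 over the 8.

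**Figure D2:**
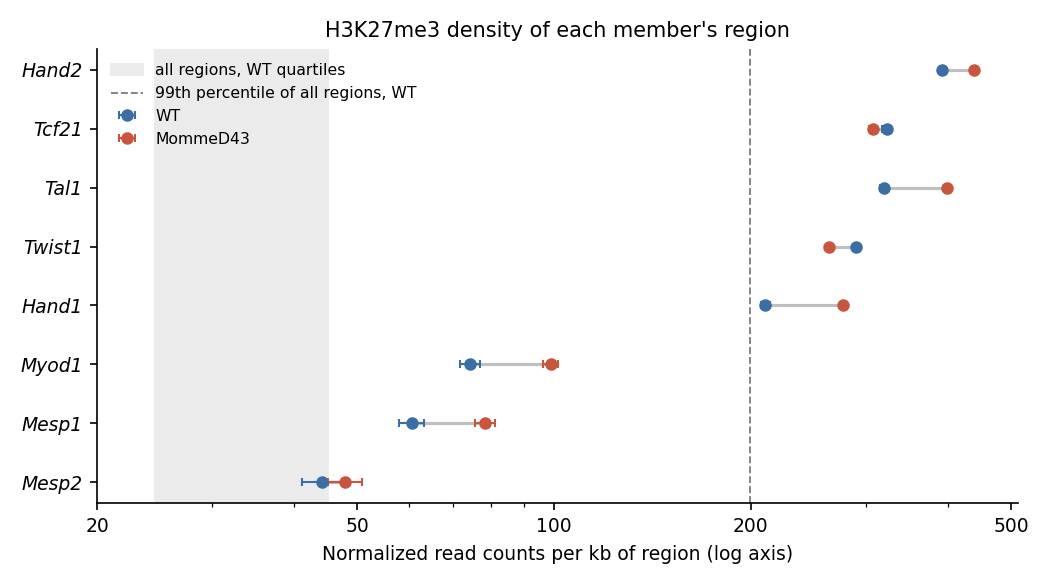
Normalized H3K27me3 counts per kb of each member's region on a log axis, in WT (blue) and MommeD43 (red), with 95% counting intervals as whiskers, which are narrower than the points at high density. The grey band is the interquartile range of all regions in WT, 24.5 to 45.0, and 5 members lay above the 99th percentile (dashed) in both genotypes while Mesp2 lay at or near the edge of the band.

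The levels behind these densities were as follows for the heart and limb factors. Hand2 had a level of 15.32 in WT, from about 12506 reads per library, and 15.48 in MommeD43, from about 17376. Its difference was 0.16 ± 0.0098, with a 95% counting interval of 0.14 to 0.18, and it turned to -0.079 under scaling to the total of all regions, -0.16 without the abundance trend and -0.11 without the length trend. Hand1 went from 14.18 to 14.57, a difference of 0.39 ± 0.014 and a 1.31-fold higher count, and turned to -0.032 without GC and density trends. The Hand1 difference was larger than that of Hand2 by 0.23 ± 0.017, so the density of Hand2 was 1.87 times that of Hand1 in WT and 1.59 times in MommeD43. Such a difference between genes is not moved by any common scaling of a library. After removal of the trend with GC content, the difference of Hand2 stood above that of Hand1 by 0.11.

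Twist1 and Tcf21 were the members with lower levels in MommeD43. Twist1 had 14.63 in WT and 14.49 in MommeD43, a difference of -0.14 ± 0.013 with an interval of -0.16 to -0.11. Tcf21 had 14.26 and 14.19, a difference of -0.07 ± 0.015 with an interval of -0.097 to -0.039. As fractions of the WT count these were 0.909 and 0.954. Both counting intervals lay below 0, but both directions turned once the GC trend was removed, to 0.40 for Twist1 and 0.16 for Tcf21, whereas with GC and density trends removed Twist1 had 0.18 and Tcf21 kept its sign, at -0.063. Twist1 had the lowest GC content of the 8 regions, 39.9%, and Tcf21 the next lowest, 42.4%.

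Tal1, at 14.45 in WT and 14.77 in MommeD43, differed by 0.32 ± 0.013, a 1.25-fold higher count, which became 0.0028 without the abundance trend and -0.060 without GC and density trends. Tal1 and Tcf21 had nearly equal densities in WT, with a ratio of 0.989, and a ratio of 1.30 in MommeD43. With the GC trend removed their differences were 0.0029 apart.

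Myod1 had the largest difference of the 8 regions as deposited. Its level was 11.79 in WT, from about 1082 reads per library, and 12.20 in MommeD43, from about 1785. The difference was 0.41 ± 0.032, a 1.33-fold higher count, and Hand1 and Myod1 could not be told apart in it, since their differences lay 0.017 ± 0.035 from each other. Mesp1 had 11.15 and 11.52, a difference of 0.37 ± 0.040. Mesp2, read from only about 256 and 344 reads per library, had 9.71 and 9.82, and its difference of 0.12 ± 0.069 had an interval of -0.017 to 0.25. A difference between genotypes was therefore not detectable at this depth for Mesp2. Mesp1 exceeded Mesp2 by 1.37 times in density in WT and 1.64 times in MommeD43. Myod1 and Mesp1 stayed above 0 under every alternative scaling and trend removal tried, between 0.13 and 0.41 for Myod1 and between 0.033 and 0.37 for Mesp1, of which the lowest was within counting error of 0, and they were the only members that did.

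Counted together, 6 of the 8 regions were higher in MommeD43 as deposited, against 60.2% of all regions, and the count was 4 under scaling to the total of all regions, under removal of the abundance trend and under removal of GC and density trends, 5 with the length trend removed and 7 with the GC trend removed. The share of all regions that were higher moved as well, to 37.1% under scaling to the total, 50.1% without the abundance trend, 55.9% without GC and density trends, 53.2% without the length trend and 55.8% without the GC trend. The counting interval lay above 0 for 5 members (40.9% of all regions) and below 0 for 2 (23.4%). None of the members was 2-fold higher, as were 6.09% of all regions, and none was 2-fold lower, as were 3.03%. The members are all autosomal, and of the 11707 autosomal regions 267 were 2-fold higher and 343 were 2-fold lower. The median difference of the members was 0.24, that of all regions 0.11 and that of autosomal regions 0.08. Scaling to the total lowered every difference by 0.24 and took the median of the members to 0.00056.

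The members were set beside autosomal regions of like size or density. Of the 708 autosomal regions of 50 kb or more, 77.0% were higher in MommeD43, with a median difference of 0.26. The 122 autosomal regions at least as dense as Hand1 in WT were higher in 84.4% of cases, with a median of 0.29. The 5 dense members, with 3 of 5 higher and a median of 0.16, were below both medians as deposited. With the GC trend removed their median was 0.19, above the 0.08 of the regions of 50 kb or more and below the 0.23 of the dense regions, so the order against the broad regions turned. Among the 3866 autosomal regions under 50 kb that held a protein-coding start, the median was 0.15, and 66.3% were higher. Myod1, Mesp1 and Mesp2 had a median of 0.37, which fell to 0.082 with the GC trend removed, beside 0.013 for those regions, and Mesp2 then stood at -0.088.

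**Figure D3:**
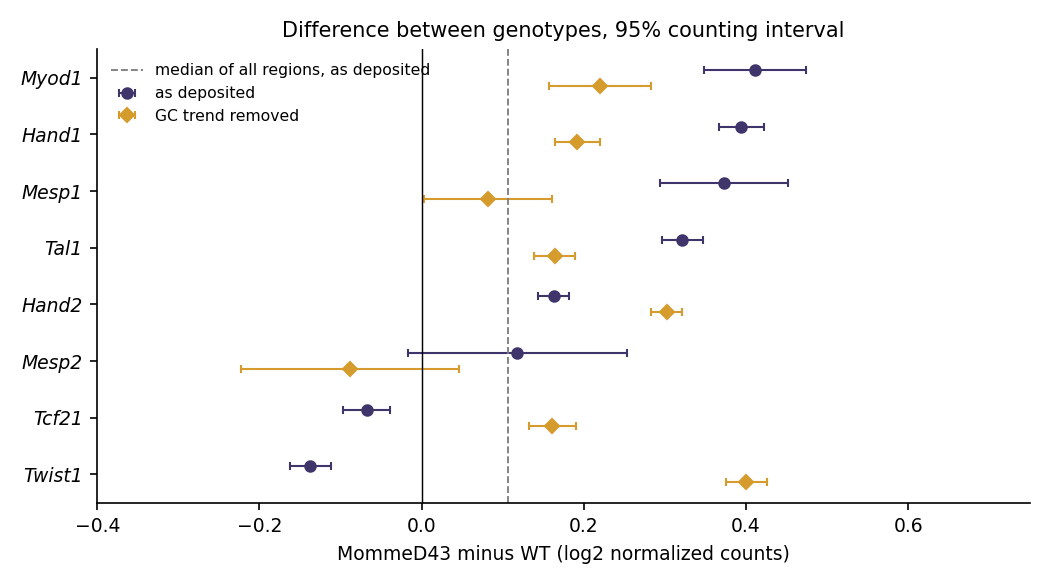
Difference between genotypes for each member's region, MommeD43 minus WT in log2 normalized counts, as deposited (circles) and after removal of the autosomal trend with GC content (diamonds), with whiskers for the 95% counting interval and a dashed line at the median of all regions, 0.11. Twist1 and Tcf21 lay below 0 before and above 0 after this removal, Mesp2 did the reverse, and no region reached a difference of 1.

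Base composition ran alongside the differences. The GC content of the members' regions rose from 39.9% at Twist1 through 42.4% at Tcf21 and 43.3% at Hand2 to 47.7% at Tal1, 48.1% at Hand1, 48.7% at Myod1, 49.2% at Mesp2 and 49.8% at Mesp1. The 3 regions of lowest GC content had differences between -0.14 and 0.16, and 4 of the 5 others had differences between 0.32 and 0.41, the exception being Mesp2. Spearman's rho between difference and GC content was 0.643 over the 8 members and 0.347 over all regions. Myod1 minus Twist1, the widest contrast among members, was 0.55 ± 0.035 in the deposited values and -0.18 once the trend with GC content was taken out. The part of base composition in the difference between genotypes was not tested, and the WCE libraries that bear on it were not analysed here.

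**Figure D4:**
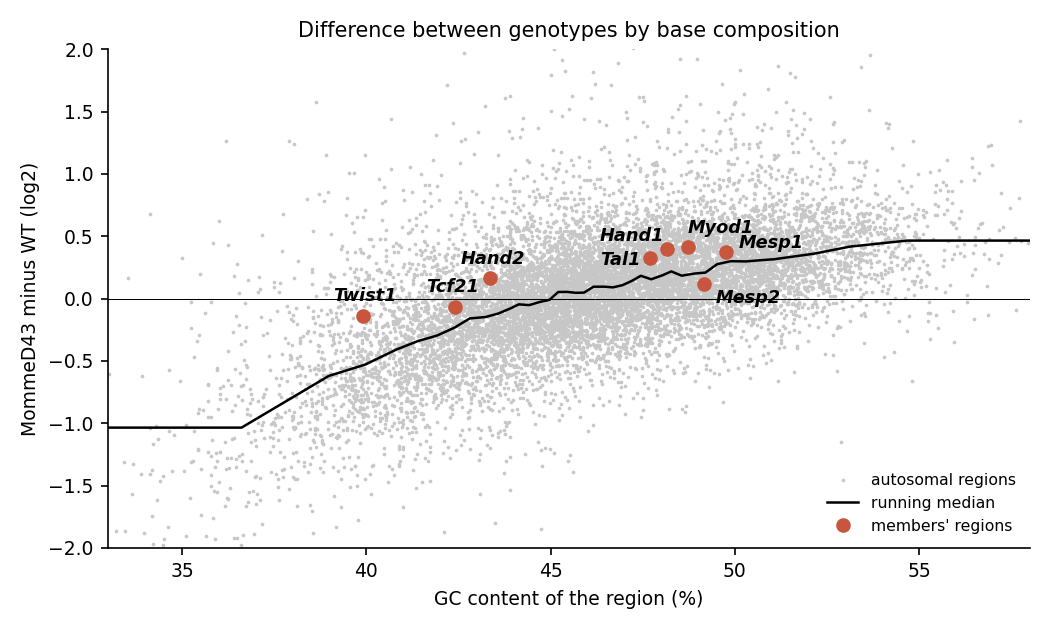
Difference between genotypes against GC content for autosomal regions (grey) and the 8 member regions (red), with the running median of the autosomal regions as a black line and axes limited to 33 to 58% GC and -2 to 2 log2 units. The line rises with GC content, 7 members sat above it, Twist1 (by 0.40) and Hand2 (by 0.30) farthest, and Mesp2 lay below it.

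The regions next to the members were sparser and did not all differ as the members did. Leaving out the members' own regions, 21 regions lay within 100 kb of the 8 members, with lengths of 5.3 to 51.2 kb and WT densities of 23.3 to 56.4 normalized counts per kb. The counting interval of the difference lay above 0 for 6 of these regions, below 0 for 5 and held 0 for 10. None reached 2-fold, though the lowest difference, -0.99 ± 0.21 in a region of 5.3 kb beside Tcf21, came close to it. The highest was 0.75 ± 0.13, beside Mesp1 and Mesp2. The 3 beside Hand1 were all above 0, at 0.20 to 0.55, as was Hand1 itself, and so were 3 of the 4 beside Mesp1 and Mesp2. Beside Tcf21, 2 of 4 were below 0, where Tcf21 itself had -0.07. Beside Myod1, which had 0.41, 1 of 6 was below 0 and the interval held 0 for the other 5, and beside Tal1 1 of 3 was below 0. Hand2 had 1 such neighbour, at -0.09 ± 0.039, and Twist1 had none.

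A list of other bHLH genes, drawn up for mesoderm and blood but also holding genes known from other tissues, had regions in 9 of 14 cases, with a median WT density of 58.3 normalized counts per kb. The highest density was that of Ferd3l, a neural gene that shares the Twist1 region. Of the others Ptf1a, a factor of pancreas and cerebellum, was densest, at 197 in WT and 213 in MommeD43. Bhlha9, which acts in limb patterning, had the largest difference, 0.54 ± 0.040, and Figla, a factor of the oocyte, the lowest, -0.22 ± 0.064. The median difference was 0.12, 7 of 9 regions were higher and none reached 2-fold, and the median turned to -0.13 under scaling to the total, -0.10 without the abundance trend, -0.06 without the length trend and -0.05 without GC and density trends. No region was found for Scx, Msgn1, Lyl1, Tal2 and Bhlha15, so Lyl1, the paralogue of Tal1, lacked a region where Tal1 had a dense one. Twist2 had a density of 78.8 in WT, against 290.1 for Twist1.

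Among the partners and inhibitors of bHLH factors, Tcf3, which encodes the E proteins E12 and E47, had a region of 164.3 kb with a density of 169 in WT and 252 in MommeD43, a difference of 0.57 ± 0.011. Tcf4 and Tcf12, the other E protein genes, had no region. Of the Id genes, Id1 and Id3 had WT densities of 37.4 and 24.7, and differences of 0.17 and 0.63. Id4 was the exception in direction, from 90.9 to 58.6 normalized counts per kb, a difference of -0.63 ± 0.025. Id2 had no region. The median difference of the 4 regions was 0.37, and -0.04 without GC and density trends.

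Genes of the myogenic program, in which Myod1, Myf5 and Myf6 act, had regions in 14 of 17 cases. Of these 11 were higher and 3 lower, with a median difference of 0.23 and none past 2-fold, and the median turned to -0.0091 under scaling to the total and to -0.04 without GC and density trends. Pax3, which acts upstream of the myogenic factors, had a density of 317 normalized counts per kb in WT and 402 in MommeD43, and a difference of 0.35 ± 0.0092. Ckm, the muscle creatine kinase gene, had the largest difference, 0.62 ± 0.041, and Eya1, a transcriptional cofactor, the lowest, -0.73 ± 0.13. Myog, the bHLH factor of muscle differentiation, had a small region of 11.3 kb that did not include its start, at 56.9 in WT and 64.2 in MommeD43. Mef2c, Actc1 and Tnnt1 had no region, as was the case for Myf5 and Myf6.

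Genes of early mesoderm and somites, the setting of Mesp1 and Mesp2, had regions in 13 of 15 cases, with 11 higher and a median difference of 0.66, which stayed between 0.29 and 0.66 under every scaling and trend removal. In this list 4 regions were at least 2-fold higher, those of Foxc1 (2.13 ± 0.037), Ripply1 (1.47 ± 0.032, on the X chromosome), T (1.39 ± 0.028) and Meox2 (1.26 ± 0.095). Foxc1, a forkhead factor of paraxial mesoderm, went from 54.7 to 239 normalized counts per kb, and Osr1, a factor of intermediate mesoderm, was the densest in WT at 230.5. Dll1, the Notch ligand of somite segmentation, had the lowest difference, -0.62 ± 0.061, in a region that reached its flank but lay outside the gene body and its start. Mesp1 and Mesp2, at 0.37 and 0.12, were below the median of this list.

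Cardiac genes, the setting of Hand1 and Hand2, had regions in 7 of 11 cases and a median WT density of 263, close to the 250.3 of the members. Nkx2-5, a core cardiac factor, was densest, going from 302 to 368. Tbx5, the T-box factor of heart and forelimb, had the largest difference of all listed genes, 2.67 ± 0.045, with a density of 33.2 in WT and 210.5 in MommeD43, and Tbx20 the lowest of the cardiac list, -0.01 ± 0.014. The median difference was 0.33, and 0.036 or more under each alternative, and 6 of 7 were higher. Hand1 and Hand2 lay on either side of that median, at 0.39 and 0.16.

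Genes of blood and endothelium, which Tal1 specifies, had regions in 10 of 14 cases, a median WT density of 85.1 and a median difference of 0.25, with 8 of 10 higher, though the median was -0.016 without GC and density trends. Gata2, a partner of Tal1 in blood progenitors, was the densest, from 199 to 260 normalized counts per kb. Kdr, the VEGF receptor of haemangioblasts, was the only gene of this list past 2-fold, at 1.11 ± 0.069, and Fli1 had the lowest difference, -0.13 ± 0.012. Gata1, Lyl1, Cdh5 and Hbb-bt had no region. The density of Tal1, 319 in WT, was above that of all 10 regions.

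**Figure D5:**
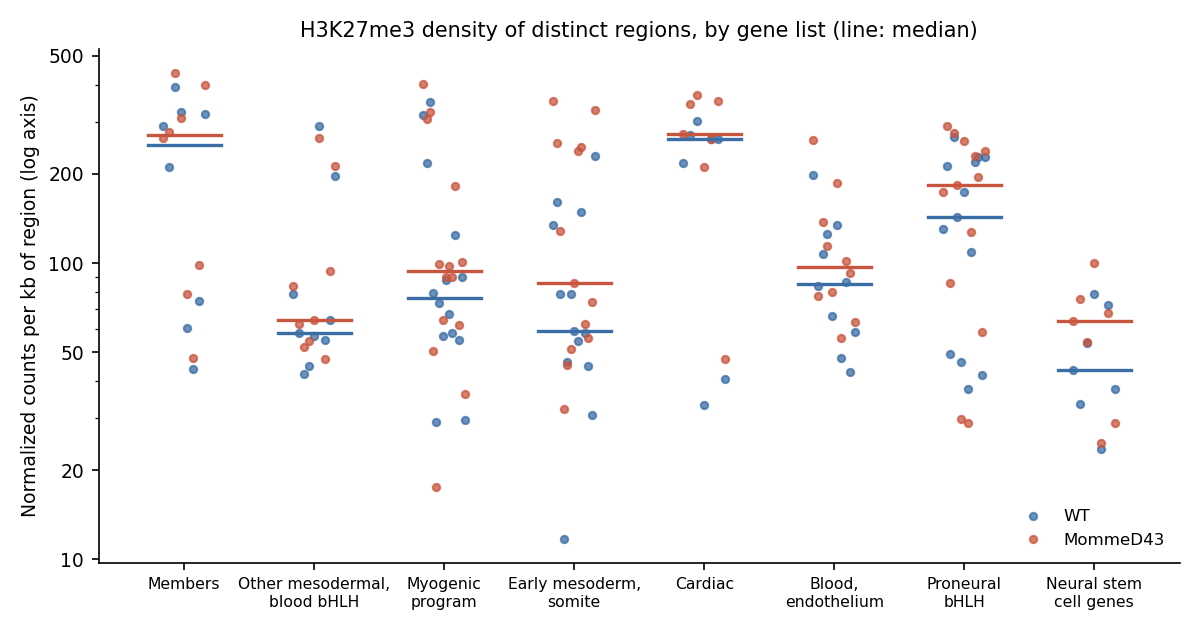
H3K27me3 density of the distinct regions in each gene list, in normalized counts per kb on a log axis, with 1 point per region and genotype (WT blue, MommeD43 red) and lines at the medians. The members and the cardiac genes had the highest WT medians, 250.3 and 263, and the neural stem cell genes lay at or below 78.7 in WT. The Twist1 region appears among the members and again for Ferd3l.

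The proneural bHLH genes belong to the same protein family. Their list was drawn up for the neural lineage but also holds genes known from other tissues. It had regions in 13 of 17 cases, with WT densities of 37.5 to 266 and a median of 143. Neurod1 was densest, from 266 to 275, so Hand2, Tcf21, Tal1 and Twist1 lay above every proneural gene in WT. In MommeD43 Twist1, at 264, was below Neurog2 at 289.5 and Neurod1 at 275, and the other 3 remained above all of them. The median difference was 0.22, beside 0.24 for the members, and 10 of 13 regions were higher with none past 2-fold, while scaling to the total and removal of the abundance trend each took that median to -0.023. Neurog3 had the largest difference, 0.80 ± 0.063, and Neurod6 the lowest, -0.64 ± 0.11.

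Genes that neural stem cells use were looked up as well. Of 14 such genes 7 had a region, a share near the 43.3% of all protein-coding genes, so the count does not check the labelled cell type. Those without a region were Sox2, Vim, Fabp7, Notch1, Sox9, Olig2 and Egfr. The other 7 had WT densities of 23.6 to 78.7, with Hes5 the highest, and Pax6 had the largest difference, 1.18 ± 0.071. All 5 dense members lay above every gene of this set, whereas Myod1, Mesp1 and Mesp2 fell within its range. Of 8 genes with housekeeping function, 7 had no region and Hprt, on the X chromosome, had a density of 12.1. The mark does not measure RNA, and expression of the members was not analysed here.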

How the data were processed

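Per the labels and the study's methods, the authors trimmed reads with Trim Galore 0.4.4, aligned them with Bowtie2 2.3.4.1 to GRCm38.p6, and called H3K27me3 peaks per genotype on merged replicates against WCE in SeqMonk. Peaks were widened by 2.5 kb on each side and joined where closer than 1 kb. The labels give micrococcal nuclease digestion and the methods shearing, so the fragmentation is uncertain. The deposited values are log2 read counts scaled to library size, 1 mean column per genotype, not divided by length and without subtraction of WCE. Libraries were not available singly here.

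The members and gene lists were chosen with earlier results of these data known, and serve as description. Named list genes were those of highest density and of largest and smallest difference, apart from Pax3, Twist2, Lyl1, Id1, Id3, Osr1, 1 gene that is not reported here, and genes without a region, named for their relation to a member or to complete a list. Per-library tests could not be run on pooled columns. Read numbers were recovered from the low values, where 99.9% (WT) and 99.6% (MommeD43) of products were whole within 0.1. Intervals (95%) assume Poisson counts spread evenly over 3 libraries. They cover counting error only and leave out variation between cell lines. The intervals can be too narrow even for counting error, since reads that carry no molecular identifier can be copies of the same molecule. The recovery was checked on simulated data.

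Genes came from GENCODE M21 and promoters from RefSeq, where 7 of 10 members matched, both on GRCm38. Alternatives were scaling to the total of all regions or to the autosomal median, running medians over 40 bins of GC content, abundance, density or length removed, a pseudocount of 10, other gene windows, and density without the added 2.5 kb. Removal of the length trend was added after the data were seen. Computations ran in Python 3.11.15 with pandas 2.3.3, numpy 2.4.6 and scipy 1.17.1, and plots were drawn with matplotlib 3.10.9.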

Additional observations from a re-analysis of the deposited data

How the results depend on the processing

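The members' median difference, 0.24 as deposited, became 0.00056 with scaling to the total of all regions, 0.17 with scaling to the autosomal median, 0.18 with the GC trend removed, -0.032 with the abundance trend removed, 0.00052 with GC and density trends removed and 0.048 with the length trend removed. The number of members higher in MommeD43 moved from 6 to between 4 and 7, and none passed 2-fold under any of these. Of 56 values of single members under the alternatives, 12 were unchanged within counting error, 32 moved in size and 12 changed sign. With the GC trend removed, Twist1 became 0.40, Tcf21 0.16 and Mesp2 -0.088. With GC and density trends removed, Twist1 became 0.18, Hand1 -0.032, Mesp2 -0.044 and Tal1 -0.060, while Tcf21 stayed at -0.063. With scaling to the total, Hand2 became -0.079 and Mesp2 -0.12, with the abundance trend removed -0.16 and -0.067, and with the length trend removed Hand2 became -0.11. Without the added 2.5 kb on each side, the median density rose to 265 in WT and 287 in MommeD43, because the same reads were spread over a shorter span. The cause of the other changes was not tested. A pseudocount of 10 and other windows changed no direction. No paired analysis was possible because the table holds 1 pooled column per genotype, and no replicate could be left out for the same reason. As deposited, Mesp2 was the only member whose counting interval held 0, and some values under the alternatives, such as 0.033 for Mesp1 and 0.0028 for Tal1, were also within counting error of 0.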
